A study of Mus musculus with 6 samples.

Results

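Nuclear genes for the subunits of the oxidative phosphorylation complexes were compared between mouse embryonic stem cells (mES) and mouse epiblast stem cells (EpiSC). The genes were taken by name, without regard to their level: those whose probe name on the array begins with Ndufa, Ndufb, Ndufc, Ndufs or Ndufv, Uqcr, Cox followed by a digit from 4 to 8, or Atp5, together with Sdha to Sdhd and Cyc1. This gave 83 genes, measured by 114 of 41174 probes, and 82 of them entered the test, which covered 20127 genes. There were 36 genes of complex I, 4 of complex II, 8 of complex III, 16 of complex IV and 15 of complex V. The remaining 4 were the accessory genes Ndufaf1, Dmac2l (listed as Atp5s) and Cox7a2l, and Emc8 (listed as Cox4nb), whose protein is not part of oxidative phosphorylation. Ndufa4 was kept in complex I by its name, although its protein is now known as a component of complex IV.

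The respiratory chain of the inner mitochondrial membrane passes electrons from NADH (complex I) and succinate (complex II) through ubiquinone, complex III and cytochrome c to oxygen at complex IV, also called cytochrome c oxidase, and ATP synthase (complex V) uses the proton gradient so built. Most subunits are encoded in the nucleus, and a small set by mitochondrial DNA, which none of the gene names used here covered. Naive ES cells are known to respire, whereas primed epiblast stem cells are known to lean on glycolysis.

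The mES group held the lines ESF122 (replicate 1), ESF175/1 (replicate 2) and ESF58/2 (replicate 3, called ESF58/1 in its source label). The EpiSC group held EpiSC-5 (replicate 1) and EpiSC-7 at passage 20 (replicate 2) and at passage 25 (replicate 3), so it rests on 2 lines. All cultures were kept on irradiated mouse embryonic fibroblasts (MEFs), with LIF for mES and FGF2 for EpiSC, and total RNA was hybridised to 1-colour Agilent arrays. The series describes the samples as biological replicates, and the p-values here reflect only how these 6 cultures vary.

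Between 66.8% and 76% of spots per array were well above background. The 4 slides each held 1 group, so slide, growth factor and cell type cannot be told apart. Against fixed markers of the labelled cell types, all 8 naive ES cell genes were lower and all 8 epiblast genes higher in EpiSC (limma, adjusted p under 0.05). Of all genes, 15.1% fell and 11.4% rose. Dppa3 was above background on no EpiSC array and Cer1 on no mES array. Their p-values rest on values not above background in that group. Pecam1 was above background on 1 EpiSC array and Fgf5 on 2 mES arrays. Pou5f1, Sox2 and Nanog, which mark both states, did not pass the test, with log2 fold changes (EpiSC minus mES) of -0.69, -0.95 and -0.12. For Pou5f1 and Sox2 every EpiSC array lay below every mES array, and for Nanog the groups overlapped. Of 14 fibroblast markers 0 passed (0 at an unadjusted p under 0.05), and their summed signal overlapped between groups, from 17 to 105 times the 75th percentile of an array in mES and from 14.5 to 123 in EpiSC. The part of feeder RNA in the results was not tested. In bulk RNA, fewer cells of a type and less RNA per cell cannot be told apart.

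Complex IV held the largest share of subunit genes that fell in EpiSC, and complex II held none. Of the 82 genes tested, 34 fell and 0 rose (limma, Benjamini-Hochberg adjusted p under 0.05 over all genes, n = 3 per group), against 15.1% of all genes that fell and 11.4% that rose. At an unadjusted p under 0.05, 54 were lower and 0 higher, against 24.9% and 16.9% of all genes. The log2 fold change, EpiSC minus mES, was below 0 for 81 of the 82, with a median of -0.63 beside -0.14 for all genes. For 65 of the 82 the 3 EpiSC values lay wholly below the 3 mES values, a separation that 29.5% of all genes showed. All 6 arrays measured 79 genes well above background.

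The size of this difference depended on how bright genes were scaled. The main values are log2 signals relative to the 75th percentile of each array, and on that scale the median of all genes moved with brightness. Among the members, 64 (78%) had a mean signal over 8 times the 75th percentile, against 11.2% of all genes. The 2255 genes that bright had a median log2 fold change of -0.27, with 18% called lower and 5.19% higher. Quantile normalization, which gives every array the same distribution of signals, brought their median to -0.02, with 11.1% called lower. Under it 18 of the 82 members fell, against 13.5% of all genes, and the members' median was -0.40. Fold changes below are on the 75th percentile scale, and quantile values are given beside many of the groups and genes whose call they alter.

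Single arrays also weighed on the number of calls. With mES replicate 1, 2 or 3 left out, 16, 12 and 20 members passed as lower. Without EpiSC replicate 1 the number was 13, without replicate 2 it was 42 and without replicate 3 it was 12. Of the 34 genes, 11 passed in all 6 of these smaller fits, and 23 missed the threshold in at least 1.

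**Figure D1:**
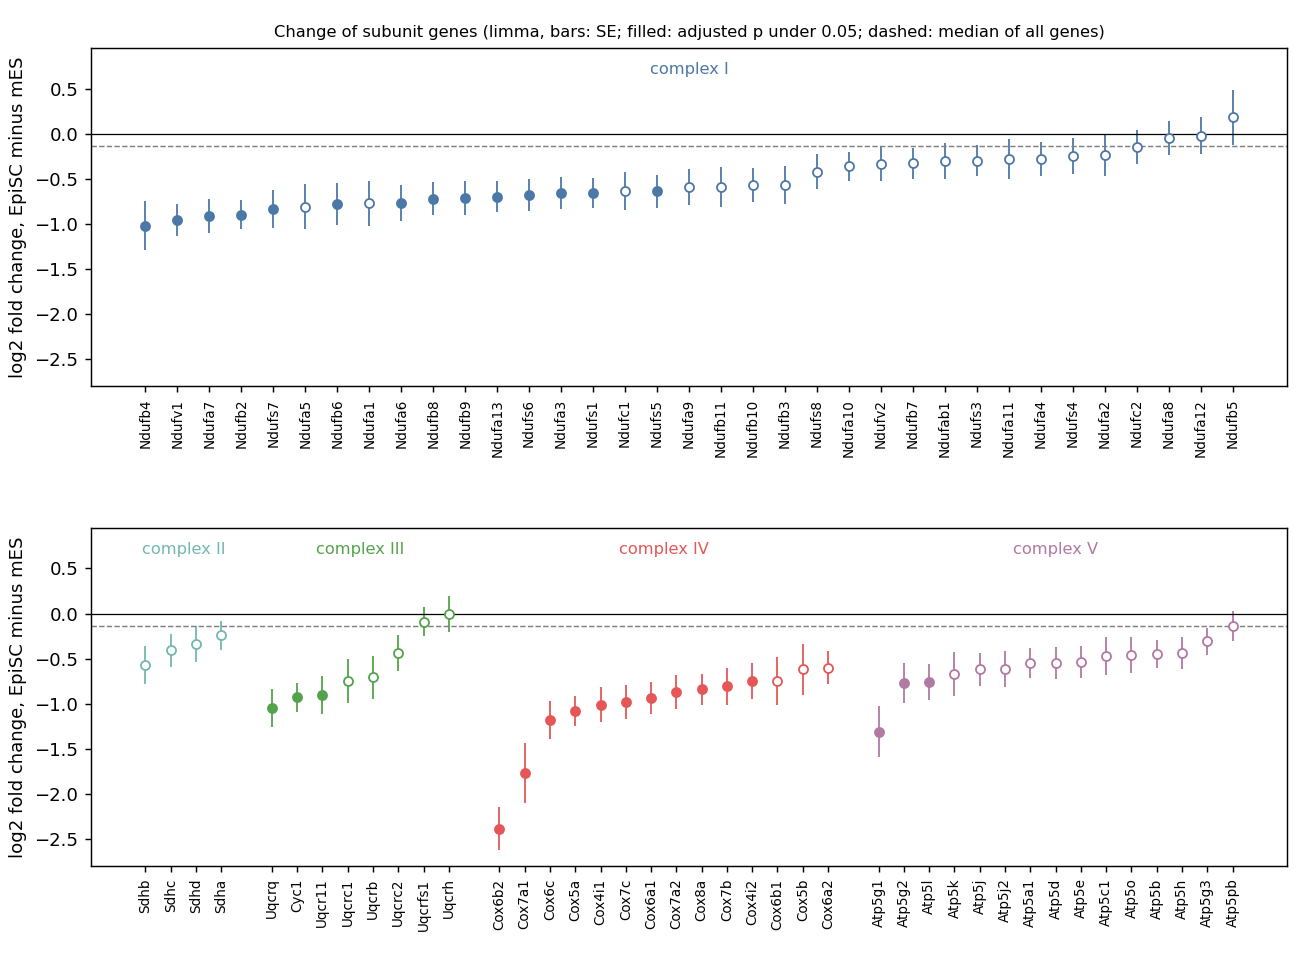
Log2 fold change (EpiSC minus mES) of the subunit genes described here, by complex, as points with the limma standard error (n = 3 per group); filled points passed an adjusted p under 0.05 and the dashed line is the median of all genes, -0.14. Cox8c, at -5.86, lies outside the axis and is not drawn; all the complex IV points lie at or below -0.60, while complex I runs from -1.02 to 0.18.

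Cytochrome c oxidase, the terminal oxidase, showed the widest fall. Of its 15 tested subunit genes 12 fell, with a median log2 fold change of -0.94 and a range from -5.86 to -0.60, and in all 15 the EpiSC values lay below the mES values. The 12 include Cox8c, at -5.86, which was above background on no EpiSC array. The other complexes together had 20 of 63 genes called, with a median of -0.57. Under quantile normalization 10 of 15 complex IV genes and 7 of 63 other subunit genes fell, with medians of -0.72 and -0.33. The latter share, 11.1%, is not above the 13.5% of all genes that fell under that scaling. Of genes over 8 times the 75th percentile, 11.1% fell under it, with a median of -0.02. Leaving out the forms restricted to muscle, testis or lung left 10 complex IV genes, of which 8 fell, with a median of -0.90. Counting Ndufa4 in complex IV gave 12 of 16. The 20 genes called in the other complexes became 7, 3 and 7 without mES replicate 1, 2 or 3, and 4, 29 and 4 without EpiSC replicate 1, 2 or 3.

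Cox4i1 and Cox5a encode a pair of subunits that join the catalytic core early in assembly. Cox4i1 had signals of 69.8, 86.1 and 76 times the 75th percentile in mES replicates 1 to 3 and 34.3, 45.2 and 36.4 in EpiSC replicates 1 to 3. Cox5a stood at 115, 110 and 117 in mES and at 48.4, 62.3 and 51.9 in EpiSC. In both genes every EpiSC array was below every mES array, and EpiSC replicate 2 was the highest of its group. Cox4i1 fell by 1.01 ± 0.19 on the log2 scale (SE, limma adjusted p = 0.0117), a 2.01-fold difference, and Cox5a fell by 1.08 ± 0.17 (adjusted p = 0.00681).

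Cox6c, a small membrane subunit, was measured at 68.1, 63.1 and 60.1 in mES and 25.4, 36.2 and 23.9 in EpiSC, and the groups did not overlap. It fell 2.27-fold (log2 fold change -1.18 ± 0.21, limma adjusted p = 0.0102). Cox7c, another small membrane subunit, had 40.1, 34.7 and 34.2 in mES against 17.3, 22 and 16.4 in EpiSC (log2 fold change -0.98 ± 0.19, limma adjusted p = 0.0131). Cox6a1, the broadly expressed form of subunit 6a, had 181, 188 and 191 against 92.2, 117 and 86.1. Its fall of 0.94 ± 0.18 (limma adjusted p = 0.0129) became 0.54 under quantile normalization, still past the threshold. These genes passed with any 1 array left out.

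Cox7a2, Cox8a and Cox7b, the broadly expressed forms of small subunits, fell less. Cox7a2 had 46, 44.8 and 34.9 in mES and 22.4, 25.7 and 20.6 in EpiSC (log2 fold change -0.87 ± 0.19). The signals of Cox8a were 72.8, 73.7 and 71.2 against 39.4, 47.4 and 35.9 (-0.84 ± 0.17). For Cox7b they were 21.8, 22.8 and 21.5 against 11.4, 16.6 and 10.5 (-0.81 ± 0.21). The limma adjusted p-values were 0.0203, 0.0163 and 0.0361, and under quantile normalization Cox7b no longer passed (adjusted p = 0.0567). They passed in 2, 2 and 1 of the 6 fits with 1 array left out. No EpiSC value reached the lowest mES value of the same gene.

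The remaining broadly expressed subunits missed the threshold. Cox5b, which binds zinc on the matrix side, had 42.2, 56.8 and 57.5 in mES and 42 and 27 in EpiSC replicates 2 and 3. The spot of EpiSC replicate 1 was left out as an outlier, and EpiSC replicate 2 lay just under mES replicate 1, and the log2 fold change of -0.62 ± 0.28 rests on 2 EpiSC arrays (limma adjusted p = 0.162). Cox6b1, which faces the intermembrane space, had 1.97, 2.3 and 2.08 against 1.14, 1.84 and 0.938, with EpiSC replicate 2 close to the mES arrays (log2 fold change -0.75 ± 0.27, limma adjusted p = 0.0854).

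**Figure D2:**
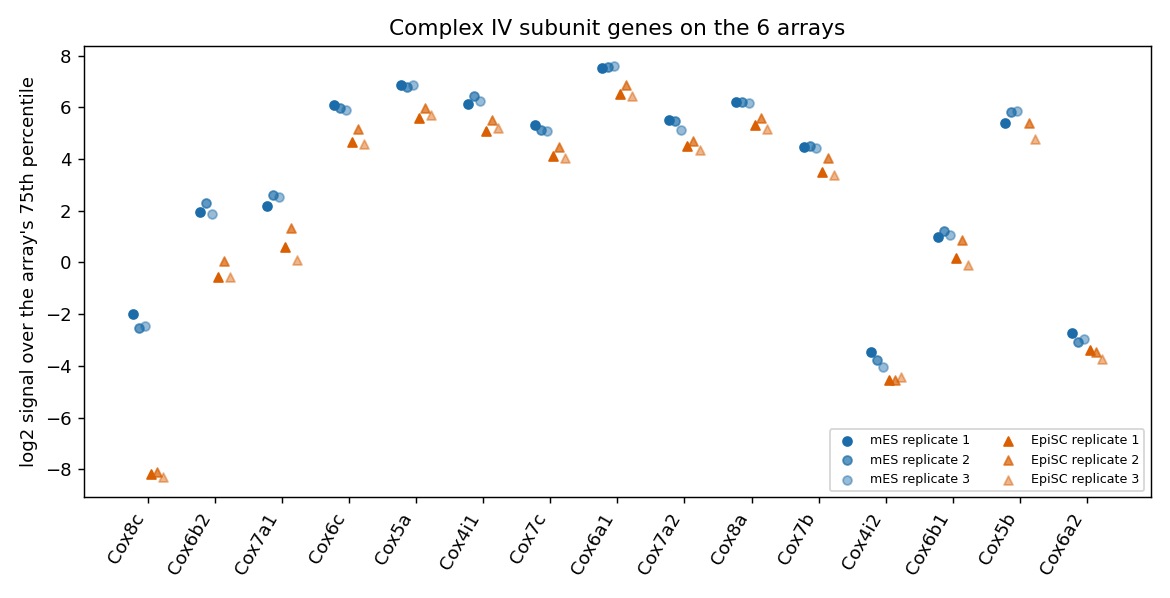
Log2 signal of the 15 tested complex IV genes on each array, relative to the array's 75th percentile (mES circles, EpiSC triangles; replicates 1 to 3 from dark to light), sorted by fold change. The 3 EpiSC points lie below the 3 mES points in all 15 genes, with 2 EpiSC points for Cox5b; levels of different genes come from different probes and are not comparable.

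Several complex IV subunits exist as tissue forms, and of these Cox8c, Cox6b2 and Cox7a1 held the largest changes of the complex. Cox6b2, the testis form of subunit 6b, had 3.87, 4.94 and 3.63 in mES and 0.678, 1.04 and 0.684 in EpiSC. It fell 5.24-fold (log2 fold change -2.39 ± 0.24, limma adjusted p = 0.00168) and passed in every fit with 1 array left out. Cox7a1, the heart and skeletal muscle form of subunit 7a, had 4.56, 6.04 and 5.78 against 1.5, 2.53 and 1.07. It fell 3.41-fold (log2 fold change -1.77 ± 0.33, limma adjusted p = 0.0126), with EpiSC replicate 2 the highest of its group. For both genes the quantile values, -2.33 and -1.69, were close to the main ones.

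Cox8c, the testis form of subunit 8, was dim. Its signals in mES were 0.254, 0.173 and 0.18 of the 75th percentile, well above background on all 3 arrays, and in EpiSC 0.00343, 0.00366 and 0.00319, not above background on any. It entered the test through the mES arrays alone. Its limma adjusted p of 5.42e-05 belongs to the fitted -5.86, which uses the EpiSC values not above background. Against the lowest signals well above background it was at least 12.2-fold higher in mES, a bound that the p does not test. This bound covers the signal of the EpiSC arrays only. With normexp background correction the fitted log2 fold change was -2.08 in place of -5.86, smaller than the bound. That correction added an offset of 50 to every signal, which shrinks the fold changes of dim probes. Cox8b, the muscle form, was above background on 1 mES and 1 EpiSC array and was not tested. Its signals were 0.033, 0.0234 and 0.0201 in mES and 0.0159, 0.0184 and 0.0215 in EpiSC.

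Cox4i2, a form known from lung and from low oxygen, and Cox6a2, the muscle form of subunit 6a, were near the low end of the array. Cox4i2 had 0.091, 0.0725 and 0.0614 in mES and 0.0428, 0.043 and 0.0459 in EpiSC (log2 fold change -0.75 ± 0.20, limma adjusted p = 0.0338; 0.0649 under quantile normalization). For Cox6a2 the values were 0.15, 0.119 and 0.128 against 0.0954, 0.0912 and 0.076 (log2 fold change -0.60 ± 0.18, limma adjusted p = 0.0545). Of 8 muscle markers 2 fell and 1 rose (15.1% and 11.4% of all genes), or 1 and 2 under quantile normalization, and their summed signal ran from 1.26 to 1.56 in mES and from 1.55 to 1.96 in EpiSC. Among them Mb, the myoglobin gene, fell by 2.18 ± 0.23 (log2 fold change -1.15 with normexp background correction) and the heart myosin gene Myh7 rose by 1.08 ± 0.28. Whether these cells bear on Cox7a1 was not tested.

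Within each array the ratio of a tissue form to its broadly expressed partner can be compared between groups. Over 3 arrays against 3 the smallest p that an exact two-sided permutation test allows is 0.10, so none of these 7 comparisons could pass 0.05. The log2 ratio of Cox6b2 to Cox6b1 was 0.97, 1.10 and 0.80 on the mES arrays and -0.75, -0.82 and -0.46 on the EpiSC arrays, a change of -1.63 (exact permutation p = 0.10, adjusted 0.14). The ratio of Cox7a1 to Cox7a2 was -3.33, -2.89 and -2.59 on the mES arrays and -3.90, -3.35 and -4.27 on the EpiSC arrays. It changed by -0.90 (exact permutation p = 0.10, adjusted 0.14). The groups did not overlap, but EpiSC replicate 2 lay just under mES replicate 1. Cox4i2 over Cox4i1 changed by 0.25 (exact p = 0.40, adjusted 0.40) and Cox6a2 over Cox6a1 by 0.34 (exact p = 0.20, adjusted 0.23), and here the groups overlapped. The ratio of Cox8c to Cox8a was lower on every EpiSC array, but its size carries the background limit of Cox8c.

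The promoters of Cox6b2 and Cox7a1 and of their broadly expressed partners are shown. The ratios of these pairs separated the groups, that of Cox7a1 to Cox7a2 narrowly. The promoter of Cox6a1 is shown as the one with the most motif matches among the complex IV promoters read out in full. The ratios of Cox8c to Cox8a and of Atp5g1 to Atp5g2 and Atp5g3 also separated the groups, and those promoters are not printed. Each sequence is the 200 bases before the annotated start, 5′ to 3′ on the strand of the gene, from the RefSeq table of GRCm38.p6. The windows are chr7:4753095-4753294 (minus strand) for Cox6b2, chr7:30626115-30626314 (minus strand) for Cox6b1, chr7:30183971-30184170 (plus strand) for Cox7a1, chr9:79759854-79760053 (minus strand) for Cox7a2 and chr5:115348959-115349158 (minus strand) for Cox6a1. Capitals mark matches, on either strand, to the NRF1 core GCATGCGC, the ETS core CCGGAAG, the estrogen-related receptor motif AAGGTCA, the GC box GGGCGG or the YY1 core AAGATGG.
Cox6b2: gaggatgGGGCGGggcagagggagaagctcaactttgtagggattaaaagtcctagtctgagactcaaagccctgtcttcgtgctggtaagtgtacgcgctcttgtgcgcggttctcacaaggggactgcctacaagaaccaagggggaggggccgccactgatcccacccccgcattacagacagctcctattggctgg
Cox6b1: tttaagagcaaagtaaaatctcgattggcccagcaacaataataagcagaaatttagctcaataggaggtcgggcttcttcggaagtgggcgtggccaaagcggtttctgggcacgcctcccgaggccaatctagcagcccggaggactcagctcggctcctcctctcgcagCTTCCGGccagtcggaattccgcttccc
Cox7a1: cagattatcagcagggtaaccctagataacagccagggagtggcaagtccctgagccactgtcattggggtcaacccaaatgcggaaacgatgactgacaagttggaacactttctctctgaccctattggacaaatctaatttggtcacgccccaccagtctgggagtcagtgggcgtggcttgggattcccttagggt
Cox7a2: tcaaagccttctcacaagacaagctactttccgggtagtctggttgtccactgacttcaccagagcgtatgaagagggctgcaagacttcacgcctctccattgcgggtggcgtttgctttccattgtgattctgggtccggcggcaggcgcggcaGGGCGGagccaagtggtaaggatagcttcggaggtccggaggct
Cox6a1: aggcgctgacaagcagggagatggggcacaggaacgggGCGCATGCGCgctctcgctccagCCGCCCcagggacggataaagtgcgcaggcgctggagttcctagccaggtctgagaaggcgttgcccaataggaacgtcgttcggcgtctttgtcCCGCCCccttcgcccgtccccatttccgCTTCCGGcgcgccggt
The windows of Cox6b2 and Cox7a2 each held 1 match, to the GC box, and Cox6b1 held 1 ETS core. Cox7a1 held none of these letters. Cox6a1 held 5 matches: the NRF1 core, read on both strands of one overlapping stretch, 2 GC boxes and 1 ETS core.

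The table held promoters for 64 of the 79 subunit genes (69 windows) and for 11 of the 16 complex IV genes. The NRF1 core, bound by nuclear respiratory factor 1, stood in 10.1% of the subunit windows (7 of 69), in 1 of 11 complex IV windows and in 2.1% of all 32851 promoter windows of that length. ETS cores stood in 14.5% (10 of 69), in 2 of 11 and in 6.29%. The estrogen-related receptor motif was present in 5.8% of subunit windows, 0 of 11 complex IV windows and 3.18% of all. GC boxes stood in 30.4%, in 4 of 11 and in 31%, and the YY1 core in 1.45%, 0 of 11 and 3.45%. A match is a run of letters and was not shown to be a site.

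Complex I, the entry point for electrons from NADH, had 14 of 36 genes called lower, with a median log2 fold change of -0.59 and a range from -1.02 to 0.18. Under quantile normalization 3 passed (8.33%, against 13.5% of all genes and 11.1% of those over 8 times the 75th percentile). These were Ndufv1, Ndufb2 and Ndufa7, and the median of complex I was -0.38. The EpiSC values lay below the mES values in 25 of the 36. The 7 core subunits of the hydrophilic arm, which carry flavin, iron-sulphur clusters or the quinone site, had 3 called and a median of -0.42.

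Ndufv1, the subunit that binds FMN and oxidises NADH, had 33.1, 38.3 and 35.5 in mES and 16.5, 21.8 and 16.8 in EpiSC. It fell by 0.96 ± 0.18 (limma adjusted p = 0.0127) and passed with any 1 array left out. Its partner Ndufv2 overlapped between the groups, at 8.6, 10.7 and 11.7 against 7.23, 9.18 and 7.88 (log2 fold change -0.34 ± 0.19, limma adjusted p = 0.225). Ndufs7, close to the quinone site, had 16.5, 15.8 and 14.9 against 8.29, 11.1 and 7.24 (-0.84 ± 0.21, limma adjusted p = 0.0285). Ndufs1, which holds several iron-sulphur clusters, had 28.4, 28 and 32.5 against 16.5, 19.5 and 20.5 (-0.66 ± 0.17, limma adjusted p = 0.0341). Both lost the call under quantile normalization, with adjusted p-values of 0.0508 and 0.0834. With 1 array left out, Ndufs7 passed in 1 of 6 fits and Ndufs1 in 0.

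The hydrophilic arm subunits Ndufs3 and Ndufs8 did not pass. Ndufs3 had 19.2, 18.7 and 18.5 in mES against 14.2, 18 and 14 in EpiSC (log2 fold change -0.30 ± 0.17). Ndufs8, which carries iron-sulphur clusters, had 2.1, 2.56 and 2.14 against 1.57, 2.01 and 1.53 (-0.42 ± 0.19). In both, EpiSC replicate 2 came closest to the mES arrays.

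Among the accessory subunits, Ndufb4 of the membrane arm had 22, 28.4 and 37.4 in mES and 13.6, 18 and 11.3 in EpiSC. Its log2 fold change was -1.02 ± 0.27 (limma adjusted p = 0.0364), with a spread between the mES arrays that left the call to 2 of the 6 fits with 1 array less, and it did not pass under quantile normalization (adjusted p = 0.0637). Ndufb2 varied little within groups, at 30.4, 31.8 and 29.9 against 15.2, 17.9 and 16.2 (-0.90 ± 0.16, limma adjusted p = 0.00918). Ndufa7 had 57.8, 61.8 and 63.2 against 28.4, 40.2 and 29.5 (-0.91 ± 0.19, limma adjusted p = 0.018). Ndufb6, Ndufa6, Ndufb8, Ndufb9, Ndufa13, Ndufs6, Ndufa3 and Ndufs5 also fell, with log2 fold changes between -0.78 and -0.64, and did not pass under quantile normalization. A dim second probe of Ndufb8 gave 0.14 ± 0.59.

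At the other end of complex I, Ndufb5 was the one member with a value above 0. It had 1.58, 1.87 and 3.2 in mES and 2.38, 1.95 and 3 in EpiSC, so the groups overlapped (log2 fold change 0.18 ± 0.31, limma adjusted p = 0.685), and without mES replicate 1 the value was -0.03. Ndufa12 lay near 0 at -0.02 ± 0.21, Ndufa8 at -0.05 ± 0.19 and Ndufc2 at -0.15 ± 0.19, all with overlapping groups, and under quantile normalization these 3 were above 0. The probes of Ndufa12 and of Ndufab1, the mitochondrial acyl carrier protein, differed in sign: the brightest gave -0.02 and -0.30, and dimmer probes gave up to 0.65 and 1.73. Ndufa4 overlapped between groups (log2 fold change -0.28 ± 0.19, limma adjusted p = 0.297).

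Complex II, succinate dehydrogenase, which also serves the tricarboxylic acid cycle, had 0 of 4 genes called (limma; 1 at an unadjusted p under 0.05) and a median of -0.37. Sdha, the flavoprotein, had 5.08, 5.86 and 5.15 in mES and 4.16, 4.64 and 4.82 in EpiSC (log2 fold change -0.24 ± 0.16, limma adjusted p = 0.298). Sdhb, the iron-sulphur subunit, had 8.89, 9.77 and 11.2 against 6.4, 8.35 and 5.62 (-0.57 ± 0.21, limma adjusted p = 0.0905). Of the membrane anchors, Sdhc gave -0.41 ± 0.18 and Sdhd -0.34 ± 0.20. The groups of Sdha, Sdhb and Sdhc did not overlap, and those of Sdhd did, at 25.3, 21.1 and 18.3 against 14.7, 19.6 and 16.8. Sdhc had 4.59, 5.02 and 5.78 against 3.59, 4.42 and 3.6.

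Complex III, which passes electrons from ubiquinol to cytochrome c, had 3 of 8 genes called under both scalings, with a median of -0.73, or -0.52 under quantile normalization. Cyc1, cytochrome c1, had 32.4, 32.4 and 37.5 in mES and 19.4, 17.1 and 17.2 in EpiSC. It fell by 0.93 ± 0.16 (limma adjusted p = 0.00949), passed with any 1 array left out, and in it EpiSC replicate 2 was not the highest of its group. Uqcrq, a small subunit beside cytochrome b, had 84.6, 95.1 and 73 against 39.8, 49.8 and 33.5 (log2 fold change -1.05 ± 0.21, limma adjusted p = 0.0158). Uqcr11, another small subunit, had 34.7, 38.5 and 28.2 against 17.8, 21.5 and 15.1 (-0.90 ± 0.21, limma adjusted p = 0.0252). With 1 array left out, Uqcrq passed in 3 of 6 fits and Uqcr11 in 2. A dim second probe of Uqcrq gave -0.19 ± 0.21 and did not pass.

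Other subunits of complex III moved less. Uqcrfs1, the Rieske iron-sulphur protein, had 20.2, 20.8 and 17.8 in mES and 17.7, 19.4 and 18.1 in EpiSC, with overlapping groups (log2 fold change -0.09 ± 0.16, 0.11 under quantile normalization). Uqcrh, the hinge protein next to cytochrome c1, had 29.5, 32.4 and 23.6 against 24.9, 33 and 26.6 (-0.01 ± 0.20, 0.23 under quantile normalization). The core proteins Uqcrc1 and Uqcrc2 gave -0.75 ± 0.24 and -0.44 ± 0.20 and Uqcrb gave -0.71 ± 0.24, none past the threshold.

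ATP synthase had 3 of 15 genes called lower (20%, against 15.1% of all genes) and 1 under quantile normalization (6.67%, against 13.5%), with medians of -0.55 and -0.23. These shares are near or below those of all genes. Under quantile normalization 11.1% of genes over 8 times the 75th percentile fell. The share was 7.17% between 32 and 64 times and 3.05% over 64 times. The called genes belong to the membrane part, where the proton-driven ring of c subunits turns. The c subunit is encoded by Atp5g1, Atp5g2 and Atp5g3, whose mature proteins are alike and whose import sequences differ. Atp5g1 had 22.7, 30.2 and 22.7 in mES and 11.2, 13.1 and 6.98 in EpiSC, and the groups stood apart. It fell 2.48-fold (log2 fold change -1.31 ± 0.28, limma adjusted p = 0.0186; -1.11 and 0.0323 under quantile normalization).

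Atp5g2 had 42.3, 45.4 and 35.4 in mES and 22.9, 30.7 and 19.7 in EpiSC (log2 fold change -0.77 ± 0.22, limma adjusted p = 0.048; 0.113 under quantile normalization). For Atp5g3 the values were 142, 148 and 134 against 108, 121 and 114 (-0.31 ± 0.15, limma adjusted p = 0.177; 0.09 on the log2 scale under quantile normalization). Within each array the log2 ratio of Atp5g1 to Atp5g3 was -2.64, -2.29 and -2.56 in mES and -3.27, -3.20 and -4.02 in EpiSC, where the mean was -3.50 ± 0.46 (SD, n = 3, exact permutation p = 0.10, the smallest possible, adjusted 0.14). Against Atp5g2 the change was -0.54 (exact p = 0.10, adjusted 0.14). Both ratios were lower on every EpiSC array. Atp5l, subunit g, had 14.7, 19.2 and 17.2 against 10.1, 11.8 and 8.44 (-0.76 ± 0.20, limma adjusted p = 0.0354; 0.0721 under quantile normalization).

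The catalytic F1 head, which makes ATP, had 0 of 5 genes called (limma; 4 at an unadjusted p under 0.05) and a median of -0.54, or -0.13 under quantile normalization. Atp5b, the catalytic beta subunit, had 232, 228 and 258 in mES and 162, 192 and 173 in EpiSC (log2 fold change -0.45 ± 0.16, limma adjusted p = 0.0834). It gave 0.00 under quantile normalization. Atp5a1, the alpha subunit, had 158, 126 and 142 against 89.6, 103 and 98.1 (-0.55 ± 0.17, limma adjusted p = 0.0549; 0.55 under quantile normalization). Both lay over 64 times the 75th percentile, where the median of all genes was -0.44. Atp5pb (listed as Atp5f1), of the peripheral stalk, overlapped between the groups at -0.14 ± 0.17. Its dimmer probes gave 0.03 and -0.73, neither past the threshold. Of the 21 members with more than 1 tested probe, 5 had probes that differed in sign.

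**Figure D3:**
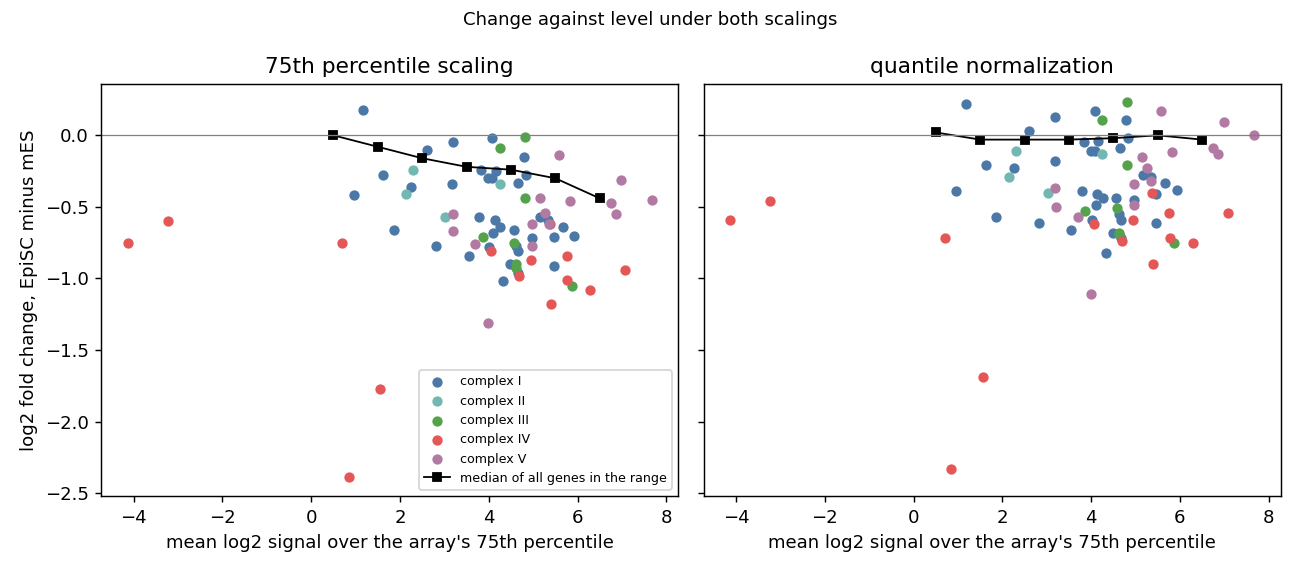
Log2 fold change (EpiSC minus mES) of the tested subunit genes against their mean log2 signal over the array's 75th percentile, with 75th percentile scaling on the left and quantile normalization on the right; black squares are the median of all genes in ranges of 1 log2 unit, the last of them holding everything brighter than 64 times the 75th percentile. The all-gene median falls to -0.44 at the bright end on the left and stays within 0.03 of 0 on the right, where the complex V points gather near a median of -0.23 and complex IV near -0.72; Cox8c is not drawn.

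Of the 4 further genes, Ndufaf1, an assembly factor of complex I, fell by 0.88 ± 0.17 (limma adjusted p = 0.0142). Dmac2l gave -0.36 ± 0.16 (limma adjusted p = 0.145), while a dimmer second probe, tested by itself, fell by 1.13 ± 0.28 (limma adjusted p = 0.0279). Cox7a2l, which takes part in joining complexes III and IV, overlapped between the groups, at 9.86, 10.7 and 12.8 in mES and 8.98, 12.5 and 10 in EpiSC (log2 fold change -0.09 ± 0.20, 0.10 under quantile normalization). Emc8 gave -0.86 ± 0.24 (limma adjusted p = 0.0446; 0.0607 under quantile normalization), and a dim second probe gave 0.60.

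Among the arrays, EpiSC replicate 2 stood closest to mES. It was the highest of the 3 EpiSC arrays for 70 of 81 members measured on all 3, against 45.9% of all genes. Most members were brighter than most genes, and the share among genes of like brightness was not computed. The 75th percentile used for scaling was 628, 682 and 617 on the mES arrays and 970, 677 and 825 on the EpiSC arrays. Its part in this pattern was not tested. With each gene set to its own 6-array mean, the median of complex IV was 0.57, 0.49 and 0.45 on the mES arrays and -0.57, -0.23 and -0.65 on the EpiSC arrays. For the other complexes together it was 0.21, 0.35 and 0.29, then -0.38, -0.03 and -0.44. EpiSC-7 at passage 25 thus lay nearer to EpiSC-5 than to EpiSC-7 at passage 20, with which it shared a line and a slide but not a position on the slide. The difference between complex IV and the others within an array, which no scaling between arrays that shifts all genes alike can move, was 0.36, 0.14 and 0.15 in mES and -0.18, -0.20 and -0.21 in EpiSC. Without the tissue forms it was 0.22, 0.14 and 0.11, then -0.17, -0.19 and -0.21. The summed fibroblast markers were 85, 17 and 105 in mES replicates 1 to 3 and 123, 75.4 and 14.5 in EpiSC replicates 1 to 3. Their part in these medians was not tested.

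**Figure D4:**
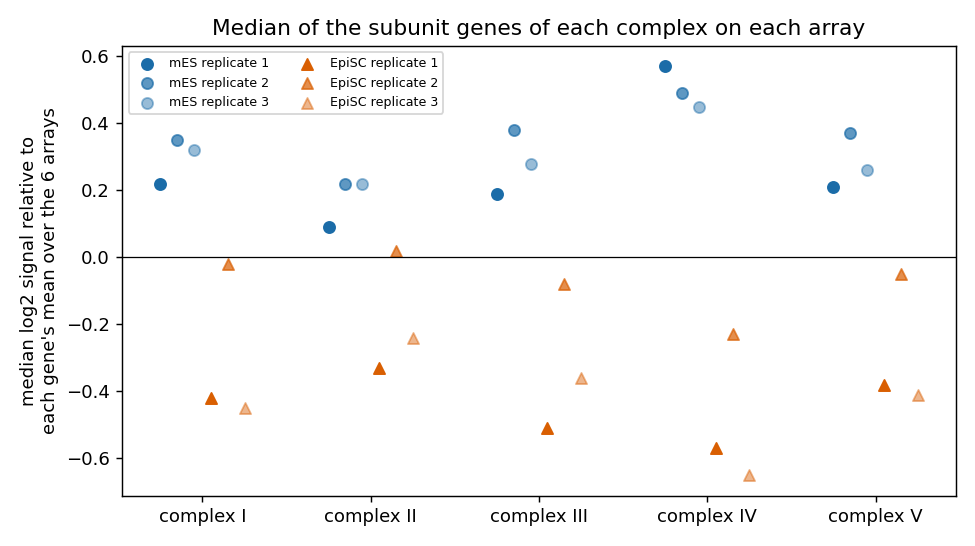
Median log2 signal of the subunit genes of each complex on each array, with each gene set to its own 6-array mean (mES circles, EpiSC triangles; replicates 1 to 3 from dark to light). EpiSC replicate 2 is the highest EpiSC array in every complex, and the gap between groups is widest in complex IV, from 0.45 at the lowest mES array to -0.23 at the highest EpiSC array.

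Subunit genes that the array lists under former names, and which the name rule did not take, were looked up through their accessions. Uqcr10 of complex III had 41.1, 50 and 38.2 in mES and 20.7, 22.5 and 19 in EpiSC and fell by 1.05 ± 0.18 (limma adjusted p = 0.00899). Ndufv3 of complex I fell by 1.07 ± 0.30 (limma adjusted p = 0.0423; 0.0599 under quantile normalization; 1 of 6 fits with 1 array left out), and Atp5md and Atp5mpl of complex V gave -0.27 ± 0.24 and -0.23 ± 0.29. Cox7b2, the testis form of subunit 7b, had 0.279, 0.226 and 0.103 in mES and was not above background on any EpiSC array, at 0.00495, 0.00784 and 0.00908. It was at least 11.4-fold higher in mES, though with normexp background correction its fitted log2 fold change was -1.72, smaller than this bound. Its limma adjusted p of 0.00116 belongs to the fit on EpiSC values not above background and does not test the bound.

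Other testis forms of respiratory genes were also lower in EpiSC, and of these Cyct was above background on all 3 EpiSC arrays. Cyct, the testis cytochrome c, had 2.01, 15.4 and 1.81 in mES and 0.02, 0.0299 and 0.0181 in EpiSC, with mES replicate 2 far above the other mES arrays (log2 fold change -7.43 ± 0.82, limma adjusted p = 0.00232). It was -7.98 to -6.43 with 1 array left out and -5.35 with normexp background correction, past the threshold in each. The somatic cytochrome c gene Cycs had 35.1, 43.1 and 37.4 against 37.2, 44.3 and 41.9, with overlapping groups (0.10 ± 0.17, limma adjusted p = 0.699). Slc25a31, an ADP/ATP carrier of the germ line, had 0.591, 1.01 and 0.597 in mES and was not above background in EpiSC, and was at least 43.5-fold higher in mES. Pdha2, the testis form of a pyruvate dehydrogenase subunit, had 0.11, 0.39 and 0.124 and was at least 10.7-fold higher in mES. With normexp correction the fitted log2 fold changes of Slc25a31 and Pdha2 were -3.13 and -1.83, smaller than these bounds.

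The somatic carriers Slc25a4 and Slc25a5 gave -0.18 ± 0.17 (limma adjusted p = 0.461) and -0.72 ± 0.18 (limma adjusted p = 0.0307; 0.13 under quantile normalization), and Pdha1 gave -0.64 ± 0.23 (limma adjusted p = 0.0867). Of 7 male germ cell markers 5 fell (71.4%, against 15.1% of all genes). Their summed signal was 23.5 to 30.4 in mES and 0.726 to 1.45 in EpiSC. The markers Ddx4, Mael, Sycp3 and Stra8 were not above background on any EpiSC array. They entered the test through the mES arrays alone, so their calls rest on EpiSC values not above background. Tnp1 and Prm1, which belong to late spermatids, did not pass the test. The part of the germ cell genes in the results for Cox6b2, Cox7b2 and Cox8c was not tested. These testis forms outside the name rule were grouped after their values were seen.

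**Figure D5:**
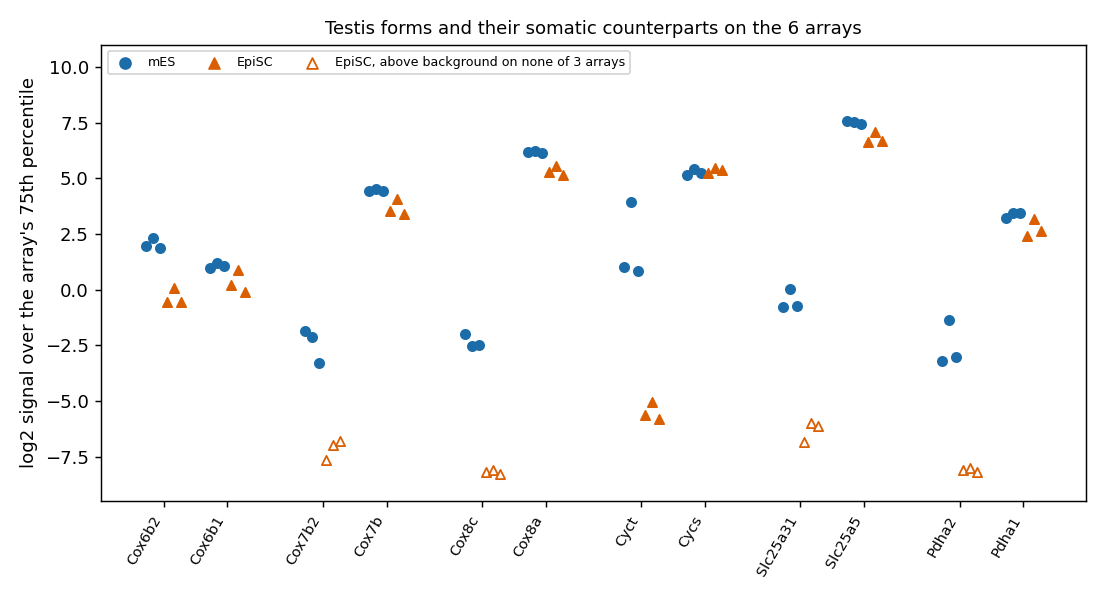
Log2 signal of 6 testis forms, each beside its somatic counterpart, on the 3 mES (circles) and 3 EpiSC (triangles) arrays, relative to the array's 75th percentile; open triangles mark genes above background on none of the EpiSC arrays. All 6 testis forms separate the groups, while Cycs, from 35.1 to 44.3 times the 75th percentile, does not; levels of different genes are not comparable.

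The genes that assemble the complexes were taken from lists written from general knowledge. Their counts stand beside 15.1% of all genes that fell and 11.4% that rose. Of 11 tested assembly factors of complex I, 3 fell and 0 rose (6 lower and 1 higher at an unadjusted p under 0.05, limma). Ecsit was 24.1, 23.6 and 19.6 in mES and 7.56, 9.99 and 6.8 in EpiSC and fell by 1.48 ± 0.21 (limma adjusted p = 0.00479). Ndufaf7, a mitochondrial methyltransferase, and Tmem126b fell by 1.13 and 1.01. Of 19 assembly factors of complex IV, 7 fell, led by Cox18 (-1.04), which inserts a mitochondrially encoded subunit into the membrane, and Cox11 (-0.88), which delivers copper, followed by Cox14 (-0.82; adjusted p = 0.0638 under quantile normalization). Surf1 had 4.3, 4.01 and 3.42 against 2.49, 2.64 and 2.3 and fell by 0.66 ± 0.17 (limma adjusted p = 0.0335). Under quantile normalization 5 of the 19 were lower (26.3%, against 13.5% of all genes) and 1 higher. For complexes II and III 0 of 6 passed (limma; 1 lower at an unadjusted p under 0.05), and the median was -0.04. Of 4 genes for complex V, Atpaf1 (-0.88) and Atpif1 (-0.76), the inhibitor of ATP synthase, fell, and Atpif1 did not pass under quantile normalization (adjusted p = 0.0978). With 1 array left out, Ecsit and Ndufaf7 passed in all 6 fits. Tmem126b, Cox11 and Atpaf1 passed in 2 of them, and Cox18, Cox14, Surf1 and Atpif1 in 1. Sco2 was not analysed here.

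The counts of genes around the chain are read against the 15.1% of all genes that fell. Of 17 electron carrier genes 6 fell and 1 rose: Cyct, Coq8a (-1.75) and Coq9 of ubiquinone synthesis fell furthest, and Coq8b rose by 0.63 ± 0.18 (limma adjusted p = 0.0427). Of 8 nucleotide and proton carriers and channels 4 fell, among them Vdac1 (-0.93), the channel of the outer membrane, and Slc25a5, and 2 fell under quantile normalization. Slc25a31, also counted, was above background on no EpiSC array. Of 25 genes of the tricarboxylic acid cycle and pyruvate entry 3 fell (12%), with a median of -0.44 (-0.21 under quantile normalization). These were Pdha2, Pdhb (-1.12) and Pdk1 (-2.20), a kinase that inhibits pyruvate dehydrogenase, with 9.07, 7.7 and 5.17 in mES and 1.17, 3.7 and 0.861 in EpiSC.

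Of 15 genes for the upkeep and transcription of mitochondrial DNA 3 fell (20%, against 15.1% of all genes): Tfb1m (-1.09), Mterf1a (-0.94) and Tefm (-0.78). They passed in 2, 1 and 1 of the 6 fits with 1 array left out. Tfam, which packages mitochondrial DNA, had 68.5, 64.2 and 56.4 in mES and 55.5, 81.5 and 54.5 in EpiSC, with no difference beyond the spread (log2 fold change -0.00 ± 0.22, limma adjusted p = 0.992). Of 16 regulators 5 fell and 1 rose. Esrrb, an estrogen-related receptor and an ES cell marker, had 5.79 and 9.04 in mES replicates 1 and 2, with replicate 3 left out as an outlier spot, and 0.196, 0.0814 and 0.0837 in EpiSC (-6.04 ± 0.47, limma adjusted p = 0.00139). Ppargc1b, a coactivator of mitochondrial genes, had 1.17, 1.25 and 0.882 against 0.433, 0.644 and 0.287 (-1.34 ± 0.32, limma adjusted p = 0.0276). Sirt3, the mitochondrial deacetylase, fell by 1.06 ± 0.15 (limma adjusted p = 0.00473), and Lin28b, an RNA-binding protein, rose by 1.12 ± 0.30 (limma adjusted p = 0.0374), a call that no fit with 1 array left out kept. Ppargc1a was dim and overlapped, at 0.0409, 0.181 and 0.0266 in mES and 0.114, 0.144 and 0.107 in EpiSC (1.05 ± 0.68, limma adjusted p = 0.282).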

How the data were processed

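Expression was measured on 6 Agilent arrays of 45018 spots with the single dye Cy3, per the labels. The deposited scanner files give spot intensity on a linear scale, detrended and background-adjusted by Agilent Feature Extraction 9.1.3.1, per the file headers, and not normalized between arrays. The authors' deposited value table is the same intensity, linear and uncentred, and never departed from the scanner values by more than 0.00716 (log2), with column medians of 78.9, 84.9, 68.7, 117, 80.2 and 83. It held 0 unused columns. The probes' genome build was not used here.

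Control spots and outlier spots (12 to 24 per array) were left out, and 0 spots were saturated. The log2 signal was reduced by each array's 75th percentile, and spots of a probe were averaged. Of 41174 probes 22951 (55.7%) were named by RefSeq accession and 4520 through a shared name, and the rest kept the array's name, which can be old. Probes well above background on all arrays of at least 1 group entered, with at most 1 missing value a group, and the brightest stood for its gene. limma 3.58.1 in R 4.3.3 (lmFit, eBayes, two-sided) was fitted over 20127 genes with Benjamini-Hochberg adjustment at 0.05. Errors are its standard errors unless stated. For a bound, the bright group's mean was set against the dim arrays' mean, each dim array taken at its lowest signal well above background or, if greater, at the probe's value. The scripts were tested on simulated data.

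The array number limits the precision. Replicate numbers were given in accession order and do not pair samples. The members, lists and tests were chosen with earlier results of these data known. Per-array values are given for members past the threshold with a change of at least 1 log2 unit, the 3 largest changes per complex, paired or tissue forms and core subunits, and all other members past the threshold are named. A result that this rule would name is not reported here. Alternatives covered background correction (normexp, offset 50), scaling, source, filter, probe choice, slide, position, the repeated line, the variance model and each array left out.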

Additional observations from a re-analysis of the deposited data

How the results depend on the processing

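All 34 members called lower kept their direction in the 645 alternative fits of single genes, and 171 of these fits missed the threshold. The number of members lower, 34, was 18 with quantile normalization, 62 with slide as a random block, 2 at position 4 alone, and 12 to 42 with 1 array left out. Complex IV genes lower, 12, were 2 at position 4 alone and 8 to 12 with 1 array left out. Genes lower in the other complexes, 20, were 33 with normexp background, 7 with quantile normalization, 12 with median scaling, 44 with the slide block, 0 at position 4 alone, 34 with a mean-variance trend, and 3 to 29 with 1 array left out. The medians became -0.72 for complex IV and -0.33 for the others with quantile normalization. The number of genes past the threshold, 5338, was 8584 without the filter on dim probes, 11492 with the slide block, 2654 at position 4 alone and 2863 to 4845 with 1 array left out. Position 4 alone held 2 arrays a group, and position 1 only 1, a value with no test. The slide correlation was -0.68 and each slide held 1 group, so calls gained with that block are no support. With position as a block 35 members were lower; Ndufb4, Ndufb6 and Ndufs5 lost the call, and 4 others gained it.

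Members near 0 changed sign. With quantile normalization Ndufa12 gave 0.17, Ndufa8 0.13, Ndufc2 0.11, Uqcrfs1 0.11, Uqcrh 0.23, Atp5b 0.00, Atp5g3 0.09, Atp5pb 0.17 and Cox7a2l 0.10. With median scaling Ndufa12 gave 0.07, Ndufa8 0.04, Uqcrfs1 0.00, Uqcrh 0.08 and Cox7a2l 0.00. With normexp background Ndufa12 gave 0.05 and Uqcrh 0.03, with the mean of probes Ndufa12 0.32 and Ndufab1 0.64, with the slide block Ndufa12 0.01 and Uqcrh 0.09, and at position 4 alone Ndufa12 0.18, Ndufa8 0.10 and Cox7a2l 0.05. With 1 array left out Ndufb5 ranged from -0.03 to 0.48, Uqcrh from -0.17 to 0.07, Ndufa12 from -0.18 to 0.08, Ndufa8 from -0.16 to 0.04 and Cox7a2l from -0.22 to 0.02. The cause of these changes was not tested beyond what the settings themselves alter. No paired analysis was possible because the labels carry no shared replicate numbers; the position block above pairs no samples.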
